A study of Mus musculus with 16 samples.

Results

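Kupffer cell markers, the genes by which the resident macrophages of the liver are recognised, were followed in mouse liver with and without the transcription factor Nrf2 and with and without its activator CDDO-Me. The 10 genes were Marco, Cd5l, Adgre1, Clec4f, Timd4, Vsig4, Cd163, C1qa, Csf1r and Cd68, chosen by name from the 33730 genes of the count table. They were chosen with earlier results of these data known. All 10 passed the filter on low counts, which 16206 genes passed. RNA-seq of ribosome-depleted total RNA from snap-frozen liver gave 16 libraries in 4 groups of 4, all from C57BL/6 mice and all taken at day 0 of a partial hepatectomy, and the design text gives 4 animals for each group. Wild-type (WT) mice received DMSO at 1 µL/g (WT DMSO) or CDDO-Me at 3 mg/kg (WT CDDO-Me), and Nrf2-/- mice (KO) were left untreated (KO untreated) or received CDDO-Me at 3 mg/kg (KO CDDO-Me). Injections were intraperitoneal, 24 h and 1 h before surgery, with the drug dissolved in DMSO, per the treatment protocol; the design text places the resection 24 h after treatment, so the time since the last dose is not settled. The KO controls received no injection of DMSO, so drug and vehicle cannot be told apart in KO liver, nor genotype and vehicle between the controls. No source used here gives the age of the mice, the part of the Nrf2 gene that was deleted, or a cell type to which the deletion was limited.

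Kupffer cells line the liver sinusoids, where they clear particles, bacteria, dying cells and ageing erythrocytes from portal blood. They depend on signalling through the CSF1 receptor, and their identity genes are held up by the macrophage factor PU.1 and by liver X receptor alpha. Nrf2, encoded by Nfe2l2, is a transcription factor that binds antioxidant response elements, and CDDO-Me is a triterpenoid that releases it from its repressor Keap1. Each library is bulk liver RNA, in which fewer cells of a type and less RNA per cell cannot be told apart.

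The bases upstream of 3 markers are shown because Marco and Cd5l had the largest changes under CDDO-Me in WT liver, and because Clec4f was the only marker with a match to the antioxidant response element core in the window searched. Promoter windows of RefSeq on GRCm38.p6, 250 bases before to 50 after the gene start, were searched for 7 of the 10 markers, Marco, Cd5l, Clec4f, Timd4, Vsig4, Cd163 and Cd68, and those of Adgre1, C1qa and Csf1r were not analysed here. The 250 bases before the start are given 5′ to 3′ on the strand of the gene, at chr1:120505025-120505274 on the minus strand for Marco, chr3:87357631-87357880 on the plus strand for Cd5l and chr6:83656117-83656366 on the minus strand for Clec4f. Capitals mark the short core of PU.1 in Marco and Cd5l and the antioxidant response element core in Clec4f; in Cd5l and Clec4f the match reads on the opposite strand. The RefSeq start of Clec4f lies inside the GENCODE gene given after the sequences.
Marco: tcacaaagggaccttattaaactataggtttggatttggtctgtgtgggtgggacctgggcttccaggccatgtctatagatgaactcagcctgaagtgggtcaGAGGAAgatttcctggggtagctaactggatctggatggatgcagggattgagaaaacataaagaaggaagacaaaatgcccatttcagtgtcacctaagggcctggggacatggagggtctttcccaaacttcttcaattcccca
Cd5l: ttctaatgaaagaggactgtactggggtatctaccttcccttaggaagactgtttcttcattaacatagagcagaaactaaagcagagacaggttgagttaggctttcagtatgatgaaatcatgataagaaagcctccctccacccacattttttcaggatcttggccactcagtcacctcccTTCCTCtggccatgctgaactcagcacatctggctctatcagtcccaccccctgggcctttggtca
Clec4f: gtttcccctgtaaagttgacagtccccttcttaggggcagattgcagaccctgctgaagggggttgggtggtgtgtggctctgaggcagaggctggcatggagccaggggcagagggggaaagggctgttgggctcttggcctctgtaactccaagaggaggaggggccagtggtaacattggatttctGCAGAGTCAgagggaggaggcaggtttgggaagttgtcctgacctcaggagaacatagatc
Letters were searched on both strands. The antioxidant response element core TGACNNNGC was found in 1 of the 7 windows, that of Clec4f on the opposite strand, and in 12.4% of 32851 promoter windows of the same length. The short PU.1 core GAGGAA was found in 4 of the 7 windows, those of Marco, Cd5l, Vsig4 and Cd68, and in 28.3% of all windows. The longer GAGGAAGT, which contains the short core, was in 0 of the 7 and in 3.2% of all; the liver X receptor direct repeat was in 0 of the 7 and in 0.0152% of all. A match is a description of the letters and not a binding site.

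By GENCODE M21 on GRCm38, Marco lies at chr1:120474538-120505024, Cd5l at chr3:87357881-87371073, Adgre1 at chr17:57358691-57483527, Clec4f at chr6:83644542-83656187 and Timd4 at chr11:46810800-46844332. Vsig4 lies at chrX:96247203-96293438, Cd163 at chr6:124304656-124330527, C1qa at chr4:136895917-136898803 and Cd68 at chr11:69664213-69666153. All 10 are protein-coding, and counts were summed per gene. Csf1r overlaps Hmgxb3 on the opposite strand, which held 326 to 3194 counts per library, and because no source used here states the strand setting of the counting, reads of this pair cannot be told apart. The other 9 markers overlap no annotated gene.

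Library totals ran from 12002317 to 99284626 counts, the highest in WT CDDO-Me 1. Nfe2l2 read 36.6 to 74.9 CPM (each count relative to its library's TMM-scaled total) in the 8 WT libraries and 15.7 to 51.7 CPM in the 8 KO libraries. The library labelled KO untreated 1, at 51.7 CPM, lay within the WT range. Results whose call or direction changed without that library are given with and without it. The library labelled KO untreated 2, at 35.5 CPM, lay just under the lowest WT library. KO untreated 3 and 4 read 19.9 and 21.3 CPM, and the KO CDDO-Me libraries 15.7 to 21.0 CPM. Sense-intronic genes and genes of the annotation's TEC class (unverified models) together held 0.673 to 0.967% of counts in 4 libraries, WT DMSO 1 and 2 and those labelled KO untreated 1 and 2, called intron-rich here, and 0.186 to 0.407% in the other 12. The ribosomal RNA share was 0.173 to 0.634% in 6 of the 8 WT libraries. It was 0.00108 to 0.0368% in the other 2 (DMSO replicate 4 and CDDO-Me replicate 1) and in every KO library. Between genotypes it can be told apart from Nrf2 only through these 2 WT libraries, and its part in the results was not tested. WT DMSO 4 stood apart in immune genes: neutrophil genes summed to 49.0 CPM there, against 6.56 to 10.8 CPM in its 3 group mates, and monocyte genes to 135.6 against 31.6 to 77.4 CPM.

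Levels between genes were compared per length, in deposited FPKM. Cd5l, Clec4f and C1qa held the first 3 places in all 4 groups, and Timd4 was lowest in all 4. In WT DMSO liver Clec4f read 28.6 ± 10.3 FPKM (SD, n = 4), Cd5l 27.2 ± 6.38 FPKM and C1qa 20.7 ± 2.47 FPKM, and the libraries of each neighbouring pair overlapped. Csf1r at 10.5 ± 3.65 FPKM was the next, and no library of Csf1r reached the lowest of C1qa. Timd4 read 1.72 ± 0.615 FPKM. The place of Marco differed between groups: it ranked 7 under DMSO in WT liver, at 6.32 ± 2.60 FPKM, and 4 under CDDO-Me, at 21.0 ± 9.59 FPKM. In KO liver it ranked 5 without treatment, at 13.5 ± 3.31 FPKM, and 8 under CDDO-Me, at 6.14 ± 1.37 FPKM. At each place its libraries overlapped those of the next gene down. The WT DMSO group had the lowest mean CPM of the 4 groups for 9 markers, and Cd163 was lowest in KO untreated liver.

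**Figure D1:**
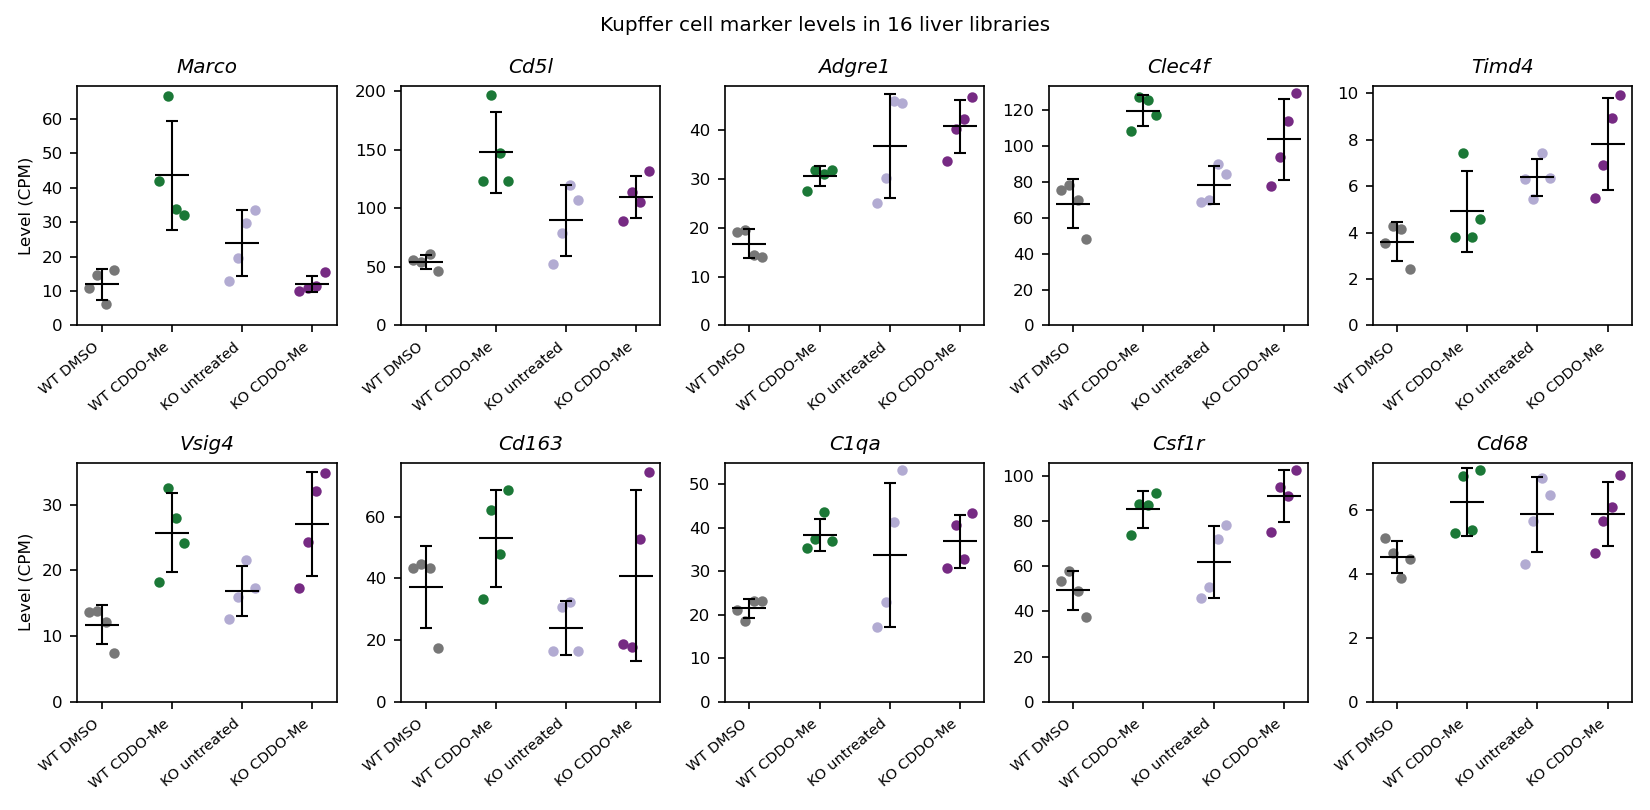
Level of each of the 10 Kupffer cell markers in CPM (vertical axis from 0) in 16 liver libraries; points are libraries, horizontal lines are group means and bars are SD (n = 4). Marco is high in the WT CDDO-Me libraries, at 32.1 to 66.6 CPM, and low in the KO CDDO-Me libraries, at 10.1 to 15.6 CPM.

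The first comparison asked how the markers differed between CDDO-Me and DMSO in WT liver. The scavenger receptor Marco rose 3.65-fold, the secreted protein Cd5l 2.72-fold, Adgre1 rose 1.82-fold and Clec4f 1.76-fold. The other 6 had fold changes from 1.36 to 2.19 and did not pass the test. Under the quasi-likelihood F-test of edgeR, with p adjusted by Benjamini-Hochberg over 16206 genes, 4 of the 10 rose, against 0.555% of all genes tested. All 10 had a fold change above 1, as did 48.4% of all genes tested. The WT CDDO-Me libraries lay above all WT DMSO libraries for 8 of the 10, all but Timd4 and Cd163, against 4.36% of all genes tested. The markers were chosen with earlier results of these data known, so these shares describe the set and are not a test of it. The median log2 fold change was 0.83 over the 10 markers and −0.02 over all genes tested.

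Marco, a scavenger receptor which binds bacteria and particles, read 10.8, 14.6, 6.16 and 16.2 CPM in the WT DMSO libraries (in the order of replicates 1 to 4, here and throughout) and 42.0, 66.6, 33.7 and 32.1 CPM in the WT CDDO-Me libraries. Each treated library exceeded the highest control. The log2 fold change was 1.87 ± 0.33 (SE; edgeR adjusted p = 0.0124). Without WT CDDO-Me 2, the highest library, the call was lost (edgeR adjusted p = 0.0556). Marco was called in the other 15 of 16 fits that left out a library. Fitted on the 2 groups alone it was not called (edgeR adjusted p = 0.055).

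Cd5l is a secreted protein of the scavenger receptor cysteine-rich family made by tissue macrophages. Its levels were 55.5, 54.3, 60.9 and 46.7 CPM with DMSO and 123.3, 196.7, 147.2 and 123.5 CPM with CDDO-Me. The groups were far apart, with the lowest treated library above the highest control. The log2 fold change was 1.44 ± 0.23 (SE; edgeR adjusted p = 0.00454), and Cd5l was called in 16 of 16 fits that left out a library and in 12 of 12 other settings.

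Adgre1 encodes F4/80, the adhesion receptor used to stain mouse macrophages. Levels were 19.1, 19.6, 14.5 and 14.1 CPM with DMSO and 27.6, 31.9, 31.0 and 31.9 CPM with CDDO-Me, with no overlap. The log2 fold change was 0.86 ± 0.19 (SE; edgeR adjusted p = 0.0493). Clec4f, a galactose-binding lectin found on mouse Kupffer cells, read 75.4, 78.3, 70.1 and 48.2 CPM in the same controls and 108.7, 127.5, 125.6 and 117.5 CPM in the treated libraries, again with no overlap. Its log2 fold change was 0.82 ± 0.18 (SE; edgeR adjusted p = 0.0492). Both calls stood close to the threshold: Adgre1 was called in 3 of the 16 fits that left out a library and Clec4f in 4. The highest adjusted p of either by edgeR was 0.147, without WT CDDO-Me 2. Without WT DMSO 4 the adjusted p by edgeR was 0.0714 for Adgre1 and 0.0602 for Clec4f.

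Vsig4, the complement receptor by which Kupffer cells catch circulating bacteria, read 7.39 to 13.8 CPM with DMSO and 18.3 to 32.4 CPM with CDDO-Me. Its log2 fold change was 1.13 ± 0.26 (SE; edgeR adjusted p = 0.0542), larger than that of Adgre1 but with a wider error. C1qa, a chain of the complement starter C1q, read 18.5 to 23.3 and 35.5 to 43.7 CPM, which gave a log2 fold change of 0.84 (adjusted p = 0.171 in edgeR). Csf1r, the receptor for CSF1 and IL-34, read 37.7 to 57.7 and 73.7 to 92.6 CPM, which gave 0.78 (adjusted p = 0.0603 in edgeR). In all 3 the groups did not overlap, and none passed the adjusted threshold. Without the library labelled KO untreated 1, which enters this comparison only through the shared spread and scaling, Vsig4 and Csf1r were called too and 6 of the 10 rose. In that fit 111 of all genes tested were called higher and 31 lower, against 90 and 28 in the main fit.

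The phosphatidylserine receptor Timd4, the haemoglobin-haptoglobin receptor Cd163 and the lysosomal glycoprotein Cd68 had the smallest responses of the 10 in WT liver. On the log2 scale these were 0.44, 0.51 and 0.46, in that order (adjusted p = 0.407, 0.550 and 0.295 in edgeR). Timd4 read 2.43 to 4.30 CPM with DMSO and 3.79 to 7.44 CPM with CDDO-Me, with overlap. Cd163 read 43.3, 44.6, 43.5 and 17.4 CPM with DMSO and 33.2, 62.3, 48.0 and 68.6 CPM with CDDO-Me. WT DMSO 4 was far below its group in Cd163, and the groups overlapped. Cd68 read 3.88 to 5.12 and 5.28 to 7.25 CPM, with no overlap.

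The count of 4 in WT liver moved with single libraries. It was 1, Cd5l, without WT CDDO-Me 2. It was 2, Marco and Cd5l, without any 1 of the WT DMSO libraries, and likewise without replicate 3 or 4 of WT CDDO-Me, replicate 2 of KO untreated, or replicate 2 or 3 of KO CDDO-Me. It was 6 without the library labelled KO untreated 1. Calls over all genes, 118 in the main fit, were 54 without WT CDDO-Me 2. They were 74, 62, 210 and 219 without WT DMSO 1, 2, 3 and 4. In the other fits with 2 markers called they were 59 to 102. Without the library labelled KO untreated 1 they were 111 higher and 31 lower. Without WT DMSO 4 and WT CDDO-Me 1, which leaves in WT only libraries of the higher ribosomal RNA share, Marco and Cd5l were called, at log2 2.08 and 1.46 (adjusted p = 0.027 and 0.0253 in edgeR). All 10 log2 fold changes stayed positive in each of the 16 fits that left out a library and in 12 other settings.

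The same drug was compared with no treatment in KO liver. In edgeR 0 of 10 markers passed, against 0.13% of all genes tested in either direction, and DESeq2 and limma also called 0. At an unadjusted p under 0.05 by edgeR, Clec4f, Vsig4 and Csf1r were higher, against 6.24% of all genes tested, and Marco was lower, against 9.58%. The median log2 fold change was 0.29 over the 10 markers and −0.04 over all genes tested. All 10 overlapped between the KO groups, where 5.98% of all genes tested lay higher under the drug without overlap and 4.5% lower. Csf1r read 46.2, 50.7, 72.1 and 78.4 CPM without treatment and from 75.3 to 102.6 CPM with the drug. Only the highest untreated library reached into the treated range. On the log2 scale the difference was 0.56 ± 0.18 (SE; edgeR adjusted p = 0.224). Vsig4 had a log2 fold change of 0.69 ± 0.25 and Clec4f of 0.41 ± 0.18 (SE; edgeR adjusted p = 0.246 and 0.294).

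Marco was the 1 marker with a negative log2 fold change in KO liver, where 45.5% of all genes tested were positive. It read 12.8, 19.5, 29.9 and 33.6 CPM without treatment and 10.1, 11.0, 11.5 and 15.6 CPM with CDDO-Me. The treated libraries were close together and low, and overlapped only with the library labelled KO untreated 1. The log2 fold change was −1.00 ± 0.33 (SE; edgeR adjusted p = 0.225), and it was −1.21 without the library labelled KO untreated 1 (edgeR adjusted p = 0.216). Without the same library the log2 fold change in KO liver went from 0.13 to −0.0914 for C1qa and from 0.0030 to −0.125 for Cd68, and those of Adgre1 and Cd5l went from 0.15 to 0.0020 and from 0.29 to 0.10, none of them called by edgeR.

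In the KO controls every marker but Cd163 was lower in the intron-rich replicates 1 and 2 than in replicates 3 and 4. Adgre1, for instance, read 25.2 and 30.2 CPM in replicates 1 and 2 and 46.0 and 45.7 CPM in 3 and 4. For Timd4 the gap was small, at 6.30 and 5.45 against 7.41 and 6.35 CPM. In the intron-rich libraries labelled KO untreated 1 and 2, C1qa read 17.3 and 23.0 CPM and Cd5l 52.4 and 78.9 CPM. In KO untreated 3 and 4, where that share was 0.249 and 0.212%, C1qa read 41.3 and 53.2 CPM and Cd5l 120.2 and 107.2 CPM. Cd163, at 16.4, 30.6, 32.2 and 16.4 CPM in KO untreated 1 to 4, did not follow this split. In WT DMSO 1 and 2, also intron-rich, Cd5l read 55.5 and 54.3 CPM, against 60.9 and 46.7 CPM in WT DMSO 3 and 4. C1qa read 21.1 and 18.5 CPM in the first pair and 23.3 and 23.1 CPM in the second. Adgre1, Clec4f, Vsig4, Csf1r and Cd68 were higher in the first WT pair, for Adgre1 at 19.1 and 19.6 against 14.5 and 14.1 CPM. Marco, Timd4 and Cd163 overlapped between the WT pairs. Nfe2l2 split the KO controls too, at 51.7 and 35.5 CPM in replicates 1 and 2 and 19.9 and 21.3 CPM in 3 and 4. The part of the intronic share or of Nfe2l2 in the values was not tested. Without the 4 intron-rich libraries, the Cd5l, Adgre1, C1qa and Cd68 fold changes in KO liver turned negative, at log2 −0.03, −0.15, −0.34 and −0.18, and that of Marco was −1.38, none of them called by edgeR.

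**Figure D2:**
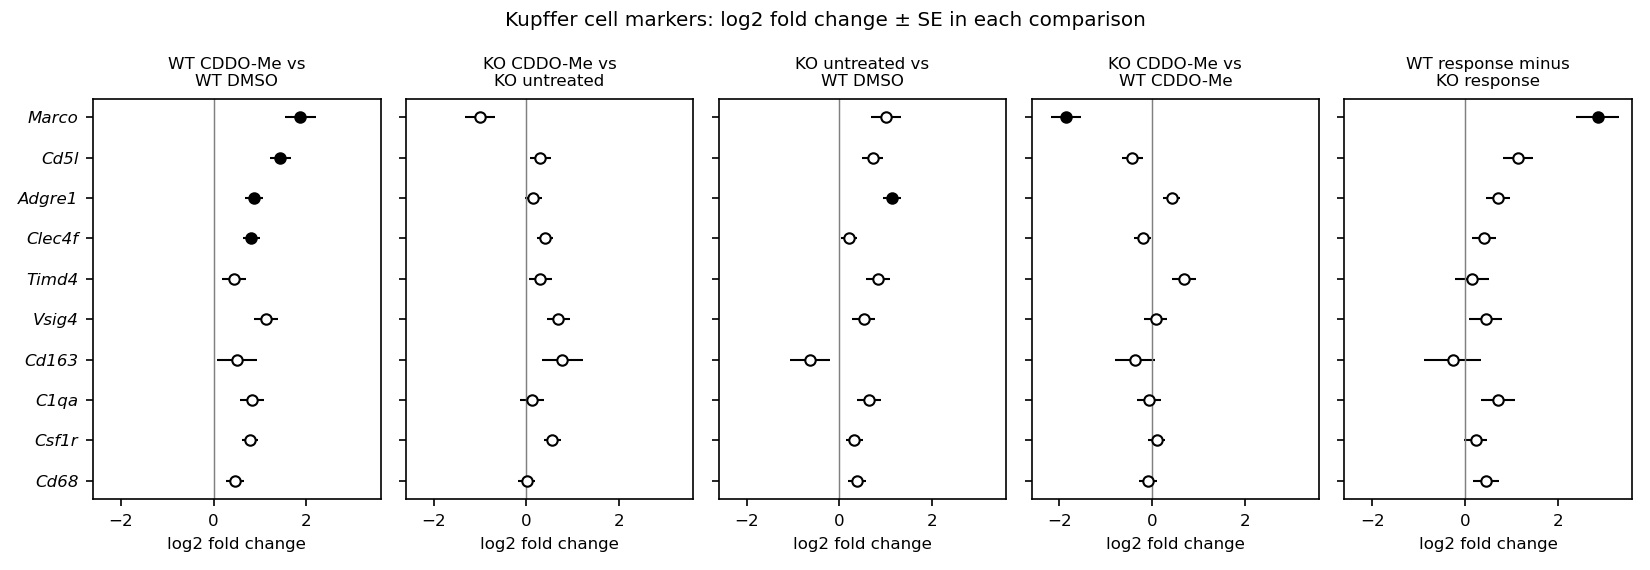
log2 fold change with its SE from edgeR (horizontal axis) for each of the 10 markers in the 4 comparisons and in the difference between the WT and the KO response; filled points passed an adjusted p of 0.05. In WT liver 4 points are filled, in KO liver 0, and Marco is the filled point in the last 2 panels.

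The difference between the responses was tested as an interaction in the same edgeR fit. For Marco the WT response exceeded the KO response by 2.86 ± 0.47 (log2, SE; edgeR adjusted p = 0.0155), with all 4 WT CDDO-Me libraries above their controls and the 4 KO CDDO-Me libraries below 3 of theirs. It was the 1 marker of 10 called, against 0.13% of all genes tested. The call held in 16 of 16 fits that left out a library, with a highest edgeR adjusted p of 0.0476 without KO CDDO-Me 2, and in 11 of 11 other settings. Because KO controls had no vehicle, this difference cannot be told apart from one in response to DMSO.

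The other 9 interaction values were smaller and not called. That of Cd5l was 1.15 ± 0.32 (SE; edgeR adjusted p = 0.226), and it was 1.33 and called without the library labelled KO untreated 1 (edgeR adjusted p = 0.0457). That of Adgre1 was 0.71 ± 0.27 (SE; edgeR adjusted p = 0.424), and it was 1.21 and called without the 4 intron-rich libraries (edgeR adjusted p = 0.0204). For Clec4f the difference was 0.41, with a 95% interval from −0.12 to 0.95, and for Vsig4 it was 0.44, with an interval from −0.31 to 1.197. For Csf1r it was 0.23, with an interval from −0.31 to 0.77. For Clec4f and Vsig4 the interval holds 0 and also the whole of the WT response.

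**Figure D3:**
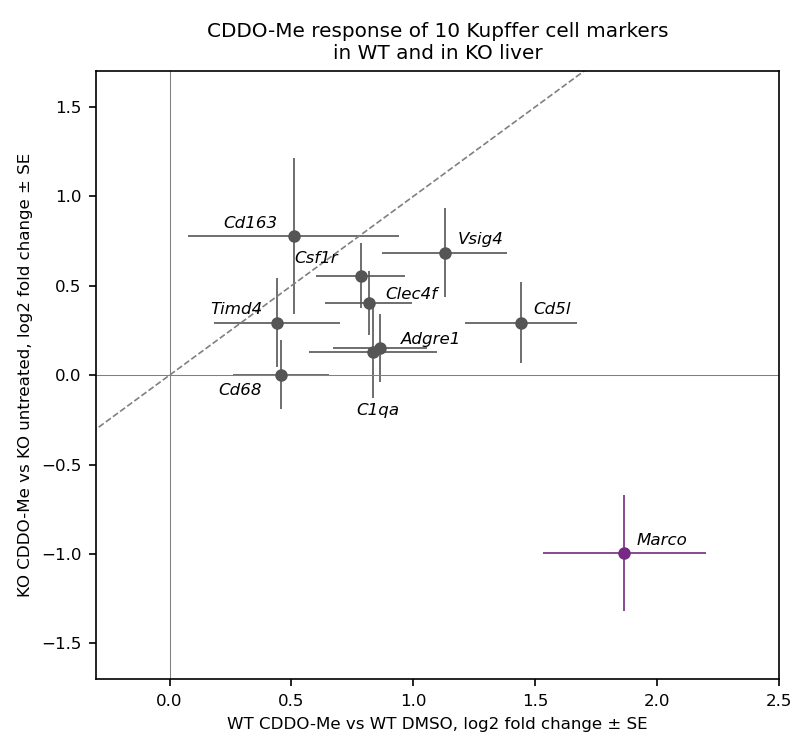
log2 fold change under CDDO-Me in WT liver (horizontal axis) against that in KO liver (vertical axis) for the 10 markers, with SE from edgeR; the dashed line marks equal responses. Marco lies far below the line, at 1.87 in WT and −1.00 in KO liver, and Cd163 lies above it.

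The control groups of the genotypes were compared first, untreated KO liver with DMSO-treated WT liver, where genotype and vehicle cannot be told apart. Adgre1 was higher in KO untreated than in WT DMSO liver, at 25.2, 30.2, 46.0 and 45.7 CPM against 19.1, 19.6, 14.5 and 14.1 CPM. All KO libraries were above all WT libraries. On the log2 scale the difference was 1.13 ± 0.19 (SE; edgeR adjusted p = 0.00749), and Adgre1 was the 1 marker of 10 called, against 0.407% of all genes tested called higher. The call held in 16 of 16 fits that left out a library and was lost when only the 2 groups were fitted (edgeR adjusted p = 0.151). Timd4 also did not overlap, at 5.45 to 7.41 against 2.43 to 4.30 CPM, and its log2 fold change of 0.83 ± 0.26 was not called (SE; edgeR adjusted p = 0.132). The 2 markers without overlap compare with 2.87% of all genes tested, and 9 of 10 positive values with 50.5%.

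Marco had a log2 fold change of 1.00 ± 0.33 between untreated KO and WT DMSO liver and Cd5l of 0.72 ± 0.23 (SE; edgeR adjusted p = 0.153 and 0.136), both with overlapping groups. Without the library labelled KO untreated 1, Cd5l was called at 0.91 (edgeR adjusted p = 0.0351). Cd163 was the 1 marker with a negative value, −0.64 ± 0.44 (SE; edgeR adjusted p = 0.585). The median was 0.59 over the markers and 0.00 over all genes tested. This comparison and the WT drug comparison share the WT DMSO libraries, and the values of Adgre1 in them were 1.13 and 0.86.

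Under the drug, Marco was lower in KO than in WT liver, at 10.1, 11.0, 11.5 and 15.6 CPM against 42.0, 66.6, 33.7 and 32.1 CPM. The highest KO library was below the lowest WT library. The log2 fold change was −1.86 ± 0.33 (SE; edgeR adjusted p = 0.00400), and Marco was the 1 marker of 10 that fell, against 2.23% of all genes tested. The call held in 16 of 16 fits that left out a library and in 12 of 12 other settings. Adgre1 lay the other way without overlap, at 33.8, 40.4, 42.4 and 46.9 CPM in KO CDDO-Me against 27.6 to 31.9 CPM in WT CDDO-Me liver, with a log2 fold change of 0.42 ± 0.19 that was not called (SE; edgeR adjusted p = 0.266). KO libraries lay higher without overlap for 9.25% of all genes tested and lower for 9.82%. Without the 4 intron-rich libraries the value of Adgre1 was 0.44 and called (edgeR adjusted p = 0.0283). The other 8 had log2 fold changes from −0.43 for Cd5l to 0.68 for Timd4, and the median over the 10 was −0.07, against −0.01 over all genes tested.

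In the order of groups by mean CPM, Marco stood at 43.6 ± 15.9 in WT CDDO-Me, 24.0 ± 9.53 in KO untreated, 12.02 ± 2.44 in KO CDDO-Me and 11.9 ± 4.45 in WT DMSO liver (SD, n = 4). Each neighbouring pair in this order overlapped. Adgre1 had the order KO CDDO-Me, KO untreated, WT CDDO-Me and WT DMSO, at 40.8 ± 5.46, 36.8 ± 10.7, 30.6 ± 2.04 and 16.8 ± 2.93 CPM (SD, n = 4), and only the last pair did not overlap. Timd4 had the same order as Adgre1. Cd5l, Clec4f, C1qa and Cd68 were highest in WT CDDO-Me and next in KO CDDO-Me liver, and each neighbouring pair of groups overlapped.

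Each marker was also set against 20 genes shared by macrophages in general, among them C1qb, Tyrobp, Laptm5 and Lyz2, as its log2 CPM minus their mean. In WT liver under the drug edgeR called 0 of the 20, with 10 higher and 1 lower at an unadjusted p under 0.05; limma called 0 and DESeq2 4 (Lgmn, Aif1, Laptm5 and C1qb). Their median log2 fold change was 0.45 in WT and 0.18 in KO liver. The mean log2 CPM that was subtracted averaged 3.52 with DMSO and 3.96 with CDDO-Me in WT liver. In KO liver it averaged 3.74 untreated and 4.19 with CDDO-Me, so a marker of unchanged CPM falls on this scale under the drug. Relative to them Marco stood between −0.64 and 0.45 in WT liver with DMSO and between 1.02 and 1.93 with CDDO-Me. In KO liver it stood between 0.46 and 0.89 untreated and between −0.84 and −0.33 with CDDO-Me. On this scale the KO groups did not overlap, with the drug-treated libraries lower. Cd5l separated in WT liver, between 1.53 and 2.65 with DMSO and between 2.96 and 3.49 with CDDO-Me. It overlapped in KO liver, between 2.48 and 2.90 untreated and between 2.42 and 2.74 with CDDO-Me.

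Relative to the same 20 genes, Adgre1 stood between −0.19 and 0.90 in WT liver with DMSO and between 0.87 and 1.13 with CDDO-Me. In KO liver it stood between 1.32 and 1.51 untreated and between 1.02 and 1.31 with CDDO-Me. On this scale its WT groups overlapped and the untreated KO libraries lay above all others. Neither held with 2 other references, both chosen after seeing the data. Without Cd14 in the mean, its WT groups separated, with DMSO libraries up to 0.79 and CDDO-Me libraries from 0.82, and KO untreated began at 1.16, below the highest KO CDDO-Me library at 1.25. With the median of the 20 genes in place of the mean, the WT groups lay up to 0.34 and from 0.38, and KO untreated began at 0.89, below 1.03 in KO CDDO-Me. Csf1r, at 1.22 to 2.61 over the 16 libraries, overlapped between the WT groups. WT DMSO 4 was the lowest library for Cd5l, Adgre1 and Csf1r here. In that library the 20 genes summed to 613.8 CPM, against 325.7 to 352.7 CPM in its 3 group mates. Cd14, 1 of the 20, averaged 38.2 CPM in the DMSO group, 6.23 CPM in WT liver with CDDO-Me and 1.55 CPM in untreated KO liver, differences not called by edgeR (adjusted p = 0.293 and 0.0844). Without Cd14 in the mean, Marco in WT liver stood between −0.77 and 0.31 with DMSO and between 0.91 and 1.90 with CDDO-Me. In KO liver it then stood between 0.26 and 0.75 untreated and between −0.89 and −0.40 with CDDO-Me.

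**Figure D4:**
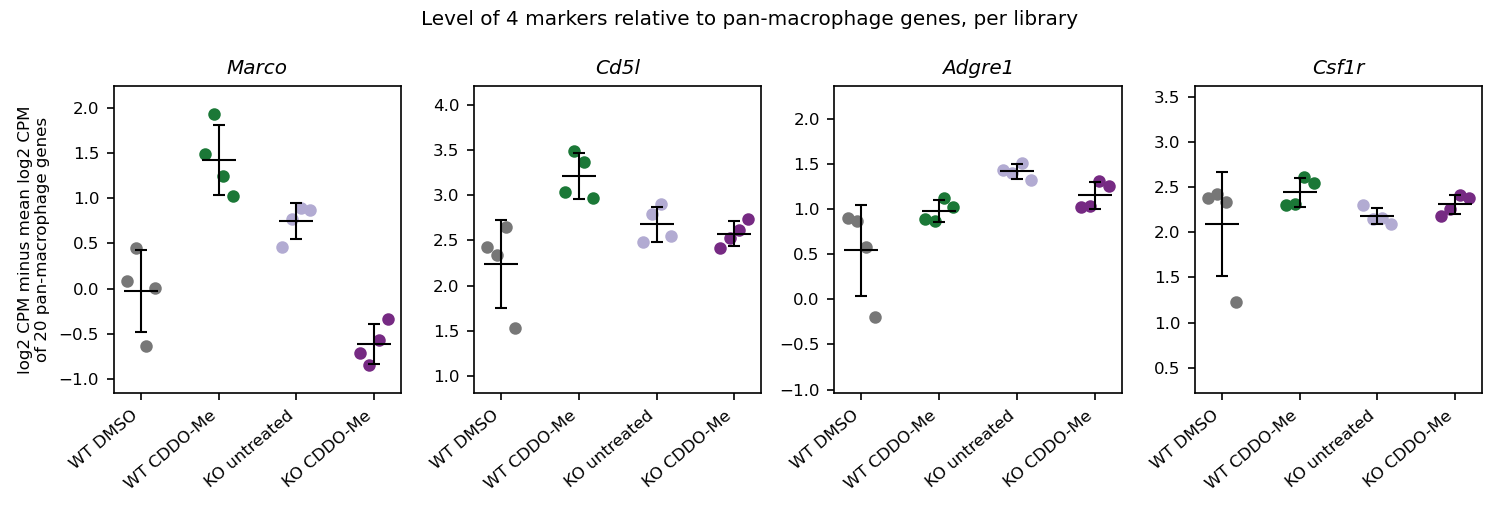
log2 CPM of Marco, Cd5l, Adgre1 and Csf1r minus the mean log2 CPM of 20 pan-macrophage genes (vertical axis, the same span in each panel), by group; points are libraries, lines are means and bars are SD (n = 4). Marco is at −0.84 to −0.33 in KO CDDO-Me and at 1.02 to 1.93 in WT CDDO-Me liver, and WT DMSO 4 is the low point in the other 3 panels.

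Of 15 other Kupffer cell genes, edgeR called 0 in WT liver under the drug, with 3 higher and 1 lower at an unadjusted p under 0.05; limma called 0 and DESeq2 2, Slc40a1 and Slc16a9. The iron exporter Slc40a1 had a log2 fold change of 1.17 (adjusted p = 0.0676 in edgeR), and Spic, a transcription factor of iron-recycling macrophages, of −0.72 (edgeR adjusted p = 0.304). The median over the 15 was 0.19. Of 21 genes of the CSF1 and macrophage development pathway, edgeR called 0 in WT liver, with 5 higher and 1 lower at an unadjusted p under 0.05, limma 0 and DESeq2 only Csf1r. Csf1 itself averaged 17.8 CPM with DMSO and 10.8 CPM with CDDO-Me (edgeR adjusted p = 0.406). In KO CDDO-Me against WT CDDO-Me liver 2 of the 21 fell: the Notch ligand Dll1, by log2 −1.35, and the receptor Notch1, by log2 −0.75 (adjusted p = 0.00590 and 0.0323 in edgeR); DESeq2 called both and limma neither. Of 18 tested scavenger and phagocytic receptors Marco rose in WT liver, and in the comparison under the drug between genotypes Marco and Stab1, an endothelial and macrophage scavenger receptor, fell, the latter by log2 −0.54 (edgeR adjusted p = 0.0473; called by DESeq2, not by limma).

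In untreated KO against WT DMSO liver, the pan-macrophage genes Aif1 and Msr1 rose by log2 1.32 and 0.56 (edgeR adjusted p = 0.0185 and 0.0493), and 2 of the 20 genes were called in all; DESeq2 called both, and limma Aif1 but not Msr1. Aif1 encodes a calcium-binding protein of macrophages, and Msr1 is a class A scavenger receptor like Marco. Trem2, a receptor of recruited and lipid-laden macrophages, was lower in drug-treated KO liver, at 0.451 CPM, than in drug-treated WT liver, at 1.48 CPM, a log2 fold change of −1.73 (adjusted p = 0.0339 in edgeR).

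Markers of other cells moved with the same comparisons, and their part in the marker results was not tested. In WT liver under the drug, 15 of 16 sinusoidal endothelial genes and 16 of 16 stellate and fibroblast genes had positive fold changes, with medians of 0.48 and 0.59, and edgeR called 0 in either list (8 and 7 higher at an unadjusted p under 0.05), limma 0, and DESeq2 2 endothelial genes, Oit3 and Flt4. All 10 Kupffer cell markers and 48.4% of all genes tested had positive fold changes there too. The endothelial sum was 502.5 to 722.7 CPM with DMSO and 808.7 to 837.4 CPM with CDDO-Me. The stellate and fibroblast sum was 377.4 to 561.7 and 683.7 to 800.8 CPM. In KO liver 14 of 16 in each of the lists had negative log2 fold changes under the drug, against 8823 of 16206 genes tested. Of the 10 Kupffer cell markers 9 were positive there and 1, Marco, was negative. Between genotypes under the drug, 15 of 16 endothelial and 16 of 16 stellate and fibroblast genes were negative in KO liver. That compares with 8320 of 16206 genes tested and 6 of 10 Kupffer cell markers. The list medians were −0.28 and −0.53. Of these edgeR called 0 endothelial genes (6 lower at an unadjusted p under 0.05; DESeq2 2, limma 0) and 1 stellate gene, Ecm1. In the interaction 16 of 16 in each list were positive, with medians of 0.70 and 1.01. So were 9 of 10 Kupffer cell markers and 8269 of 16206 genes tested. There edgeR called 0 in either list (7 and 11 positive at an unadjusted p under 0.05), limma 0, and DESeq2 2 and 1. The 10 Kupffer cell markers summed to between 217.6 and 310.4 CPM in WT liver with DMSO and to between 471.3 and 656.7 CPM with CDDO-Me. In KO liver they summed to between 262.3 and 467.9 CPM untreated and to between 362.5 and 596.2 CPM with CDDO-Me.

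The sum of monocyte and recruited macrophage genes was 31.6 to 135.6 CPM with DMSO and 56.4 to 106.4 CPM with CDDO-Me in WT liver. Of 17 tested, edgeR called 0 there (3 higher and 0 lower at an unadjusted p under 0.05), limma 0 and DESeq2 only Treml4. The neutrophil sum in KO liver was 3.96 to 6.08 CPM untreated and 12.3 to 33.7 CPM with CDDO-Me, where the granule protease Prtn3 rose by log2 4.63 (edgeR adjusted p = 0.00928). In untreated KO against WT DMSO liver the neutrophil collagenase Mmp8 fell, from 0.928 CPM to 0.0107 CPM, a level near that of no reads (edgeR adjusted p = 0.0353; not called by DESeq2 or limma). The defining neutrophil markers Ly6g, Elane and Camp stayed under 10 counts in every library. Of peritoneal macrophage and mesothelial genes, Alox15, Msln and Upk3b also stayed under 10 counts in every library, and Fn1 and F5, the highest genes of that list, are also made by hepatocytes. Prg4 of that list rose by log2 2.30 in KO liver under the drug and fell from 76.7 to 17.8 CPM between WT DMSO and untreated KO liver (adjusted p = 0.00723 and 0.00285 in edgeR). Over the 16 libraries the dendritic cell sum was 11.8 to 28.6 CPM and the lymphocyte sum 4.02 to 19.7 CPM, and the immunoglobulin gene Ighm rose by log2 2.51 in KO CDDO-Me against WT CDDO-Me liver (edgeR adjusted p = 8.11e-05).

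Over the 16 libraries the 45 pairs of markers had Pearson correlations of log2 CPM from 0.06 to 0.95, with a median of 0.68, and all 45 were positive. The points share group differences, library depth and preparation, so these values describe the table. Marco and Cd163 followed the others least, with median correlations of 0.40 and 0.42, and Csf1r most, with 0.81. The lowest pair was Marco with Timd4. The genes outside the set closest to the mean standardised level of the 10 markers were Serpinb6a at 0.94, C1qc at 0.91, C1qb at 0.91, Sdc3 at 0.90, Abcg1 at 0.87, Tyrobp at 0.86, Hacd4 at 0.86, Laptm5 at 0.86, Cfp at 0.85 and Ksr2 at 0.84. These genes were chosen for this likeness, so tests of their differences between groups depend on that choice and are not given as results. Abcg1 among them is a cholesterol exporter of macrophages.

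Closest to Marco alone over the 16 libraries were Pkm, a pyruvate kinase, at 0.90, Hk1, a hexokinase, at 0.87 and Serpinh1, a collagen chaperone, at 0.85. They too were chosen for likeness to Marco over libraries that include its group differences, so their values are a description. Pkm averaged 15.3 CPM in WT DMSO, 34.4 CPM in WT CDDO-Me, 22.0 CPM in KO untreated and 15.998 CPM in KO CDDO-Me liver.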

How the data were processed

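Total RNA was depleted of ribosomal RNA and sequenced as paired reads from a directional library kit, per the labels' protocols. The submitters' processing notes list TopHat2 (2.1.0), HTSeq (0.6.1p1) and GRCm38.p5, besides cutadapt (1.2.1), CASAVA (1.8.2) and DESeq2; no source used here states the strand setting. The authors deposited raw counts per gene and a table of FPKM values, which equalled count per length and library total within a relative deviation of 8.71e-07. Counts were fitted with edgeR 4.0.16 (R 4.3.3; filterByExpr, TMM, quasi-likelihood F-test, 1 model of 4 groups of 4 libraries, Benjamini-Hochberg over 16206 genes, adjusted p threshold 0.05). Levels are CPM on TMM-scaled totals, and log2 CPM used a prior count of 2. A gene rose or fell where its adjusted p passed the threshold. Alternatives were DESeq2 1.42.0, limma 3.58.1 on log2(FPKM + 1) or log2(FPKM + 0.1), RLE and upper-quartile scaling, other filters, a replicate block, fits on 2 groups, and libraries left out. The edgeR fit was checked on simulated data in every comparison. DESeq2 and limma were checked there only for WT CDDO-Me against WT DMSO. The simulated limma fit used log2(CPM + 1) and not FPKM.

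The markers and all gene lists were chosen with earlier results of these data known. Named by rule beside the 10 markers are genes called in a list (at most 4 per list and comparison, by adjusted p). The rule also took the 10 genes closest to the mean standardised level of the markers and the 3 closest to Marco. Spic, Csf1 and Cd14, which were not called, were picked outside this rule. So were genes named as examples, for low counts or as a check of genotype. Genes of intron-rich and nuclear RNAs, hepatocytes and erythroid cells were lists too. In these, Snhg11 fell by 2.82 on the log2 scale in KO untreated against WT DMSO liver (edgeR adjusted p = 0.0421), and edgeR called 0 hepatocyte or erythroid genes in any comparison; in WT liver under the drug 1 of 15 hepatocyte genes was higher and 1 lower, and 0 of 6 erythroid genes either, at an unadjusted p under 0.05, and DESeq2 and limma called the hepatocyte gene Cps1. Of stellate and fibroblast genes Ecm1 fell by 1.35 in KO CDDO-Me against WT CDDO-Me liver (edgeR adjusted p = 0.00322).

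Library totals of 12002317 to 99284626 counts set the counting precision. The edgeR p-values set a group difference against the spread between libraries, estimated over all 4 groups. No 2 libraries were copies: the smallest chi-square over its degrees of freedom among 120 pairs was 15.8. Deviations from the group means of same-numbered libraries correlated at 0.475, 0.483, 0.404 and 0.371 between KO untreated and WT DMSO. In both groups replicates 1 and 2 were the intron-rich libraries, so these values cannot tell pairing from that shared split. The labels name no pairs, and the main fit used none. In the other comparisons at least 1 of the 4 values was under 0.1. In KO untreated against WT DMSO liver the replicate block changed no marker's call.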

Additional observations from a re-analysis of the deposited data

Results flagged for a closer look

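The Cd163 level of WT DMSO 4, at 17.4 CPM, stood far below the other 3 WT DMSO libraries at 43.3 to 44.6 CPM. It was the 1 of 40 combinations of marker and group in which a library stood apart by Dixon's criterion, and chance flags about 1 in 20. In the same library neutrophil genes summed to 49.0 CPM and monocyte genes to 135.6 CPM, the highest values of the 16 libraries, and their part in the Cd163 level was not tested. Without WT DMSO 4, the log2 fold change of Cd163 in WT liver under the drug went from 0.51 to 0.28, not called by edgeR in either fit (adjusted p = 0.550 and 0.692).

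The response of Marco to CDDO-Me differed between genotypes, by 2.86 on the log2 scale (edgeR interaction, adjusted p = 0.0155). WT CDDO-Me libraries lay above all 4 WT DMSO libraries, and KO CDDO-Me libraries lay below 3 of the 4 KO untreated libraries. Without the library labelled KO untreated 1 the difference was 3.06 (edgeR adjusted p = 0.00387), and without WT CDDO-Me 2 it was 2.59 (edgeR adjusted p = 0.0379). KO controls had no vehicle, so genotype and vehicle cannot be told apart in this value.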

How the results depend on the processing

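Marco (comparison under the drug between genotypes, and interaction) and Cd5l (WT liver) kept direction and call in all settings run. The count of markers called in WT liver, 4, was 2 with upper-quartile scaling, with limma on log2(FPKM + 1), with or without an FPKM filter, with limma on log2(FPKM + 0.1), on the 2 groups alone (Cd5l and C1qa) and with both WT DMSO 4 and WT CDDO-Me 1 left out, and it was 6 with DESeq2. The count of 1 in KO untreated against WT DMSO liver was 0 on the 2 groups alone and 2 with the 4 intron-rich libraries left out (replicates 1 and 2 of WT DMSO and of KO untreated). The count of 1 in KO CDDO-Me against WT CDDO-Me liver was 2 in both of these settings. That of 1 in the interaction was 2 without the same 4 libraries. Calls over all genes moved as well. In KO against WT CDDO-Me liver they went from 534 to 2045 on the 2 groups alone and 1482 without the 4 libraries. In the interaction they went from 21 to 67 without the 4. Between the controls they fell from 223 to 20 and 86 in these settings. In WT liver, 118 became 450 with DESeq2, 226 with the replicate block and 72 to 113 in the settings with 2 markers. With the replicate block, though same-numbered WT libraries did not all deviate together (correlations −0.03 to 0.32), Vsig4 and Csf1r were added (edgeR adjusted p = 0.0415 and 0.0498), giving 6, and the block changed no marker's call in the other comparisons (0, 1, 1 and 1). Leaving out 1 library at a time gave 1 to 6 markers in WT liver and 0 in KO liver. It gave 1 to 2 in KO untreated against WT DMSO liver, 1 in KO against WT CDDO-Me liver and 1 to 2 in the interaction. Calls over all genes moved in these fits as well, in WT liver from 54 to 219. Without the library labelled KO untreated 1 they were 162 between the controls and 48 in the interaction.

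Of 1390 values for single markers under other settings, 1293 kept direction and side of the threshold. Another 43 lost and 18 gained a call, and 36 changed sign, none of these 36 called. Most of the 1293 were values not called in the main fit that stayed uncalled, so this total says little about the calls. The 43 lost calls all fell among the few values called in the main fit. In KO liver Cd68, at log2 0.00, was −0.0487 with upper-quartile scaling, −0.0435 with at least 50 counts in 4 libraries, −0.16 and −0.19 with limma at pseudocounts 1 and 0.1, −0.0032 on the 2 groups alone and −0.18 without the 4 intron-rich libraries. Adgre1, at 0.15, was −0.0151 and −0.0163 with limma at these pseudocounts and −0.15 without those 4, where Cd5l was −0.0277 and C1qa −0.34. In KO against WT CDDO-Me liver C1qa was 0.0573 and 0.0587 with limma at the same pseudocounts, Cd68 was 0.0305 and 0.0364, and Vsig4 was −0.0560 with both WT DMSO 4 and WT CDDO-Me 1 left out. The Cd163 interaction was 0.0257 with limma at pseudocount 0.1. Leaving out 1 library gave ranges across 0 of −0.0914 to 0.44 for C1qa and −0.13 to 0.10 for Cd68 in KO liver, of −0.0614 to 0.25 for Vsig4, −0.14 to 0.0242 for C1qa and −0.18 to 0.0188 for Cd68 in KO against WT CDDO-Me liver, and of −0.12 to 0.28 for Timd4 and −0.51 to 0.19 for Cd163 in the interaction. The cause was not tested.

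FPKM, scaled by library total, shifted the median of all genes by over 0.1: with limma at pseudocount 0.1 it was −0.13 in WT and −0.22 in KO liver under the drug, 0.17 between untreated KO and WT DMSO liver and 0.11 between genotypes under the drug. The marker medians there were 0.68, 0.10, 0.70 and 0.05. Calls over all genes in the last 2 comparisons went from 66 higher and 157 lower to 145 and 89, and from 172 and 362 to 643 and 327, and in KO liver under the drug from 17 and 4 to 29 and 26. Depth limits Timd4 and Cd68 most, which had the lowest counts of the markers.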

Other observations

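Cd163 split the KO CDDO-Me group: it read 18.6 and 17.9 CPM in KO CDDO-Me 1 and 2 and 52.7 and 74.5 CPM in KO CDDO-Me 3 and 4, a coefficient of variation of 67.5%, the highest of the 40 combinations of marker and group. In KO CDDO-Me 1 to 4 Marco read 10.1, 11.0, 11.5 and 15.6 CPM. Neutrophil genes summed to 23.9 and 33.7 CPM in the first pair and to 12.3 and 14.2 CPM in the second, and their part in the Cd163 values was not tested. Timd4, Vsig4, Clec4f, Adgre1, Cd68 and Marco were also lower in KO CDDO-Me 1 and 2 than in 3 and 4. The values were 5.50 and 6.89 against 8.92 and 9.94 CPM for Timd4 and 17.2 and 24.4 against 32.0 and 34.8 CPM for Vsig4. They were 77.7 and 94.1 against 114.2 and 129.6 CPM for Clec4f and 33.8 and 40.4 against 42.4 and 46.9 CPM for Adgre1. Cd5l, C1qa and Csf1r overlapped between the pairs.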
